A study of Mus musculus with 26 samples.

Results

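Mouse intestinal organoids answer arachidonic acid (AA) within a day of treatment, and the comparison described here asks which parts of that answer were the same at day 3 as at day 1 and which were not. The organoids, hollow or budding cultures of gut epithelium, came from crypts of C57BL/6 mice embedded in Matrigel. They received vehicle or AA at 25 µM and were collected at day 1 or day 3, with 3 libraries in each of these 4 groups. All groups shared a medium of Advanced DMEM with EGF, Noggin, R-spondin, N-acetyl-L-cysteine, CHIR-99021, which activates Wnt signalling, Y-27632, B27 and N2, so growth factor and Wnt drive were present in the controls too. The labels name no genetic change, and they do not say whether replicates were separate mice, separate cultures or repeated libraries. The p-values therefore measure only the spread between these libraries, which may be technical. The members are every gene with enough counts for a test, 14430 genes in 12 of the 26 libraries of the series. Vehicle and AA libraries of day 6 serve at the end as independent libraries, 4 in each group.

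AA is a polyunsaturated fatty acid that cells store in membrane phospholipids and release for conversion to prostaglandins by cyclooxygenases, to leukotrienes by lipoxygenases, and to epoxides and hydroxylated acids by cytochrome P450 enzymes. Prostaglandin E2 acts on G protein-coupled receptors, some of which raise cAMP. The intestinal epithelium responds to injury with a fetal-like programme in which YAP/TEAD target genes and EGF family ligands take part. In an undisturbed crypt, Lgr5-positive stem cells at the base divide beside Paneth cells, and their progeny become absorptive enterocytes or secretory goblet, enteroendocrine and tuft cells.

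The 12 libraries held 10088285 to 14602531 counts each. Expression is given in CPM, a gene's counts scaled to library size with the trimmed mean of M values. The first principal component (39.7% of the variance) separated AA from vehicle and the second (26.9%) separated the days, while on the third (9.97%) vehicle replicate 2 of day 3 stood apart from the rest. Genes that define the intestinal epithelium were all detected, with 14 of 14 tested. They summed to 9590 to 10600 CPM in vehicle and 13600 to 14000 CPM with AA at day 1. At day 3 they summed to 7780 to 8670 CPM in vehicle and 11100 to 12000 CPM with AA. Of markers of other cells, 3 of 18 fibroblast and smooth muscle genes (61.6 to 104 CPM in sum, Lum at 0), 3 of 20 immune genes (8.23 to 23.6 CPM, C1qb, Cd4 and Nkg7 at 0) and 4 of 17 endothelial and neural genes (5.49 to 9.75 CPM, Emcn, Kdr and Cldn5 at 0) passed the filter on low counts. These sums, like those of the epithelial genes, cover every listed gene found in the counts before the filter. They were scaled by total counts alone. The immune list summed to 20.3 to 23.6 CPM in vehicle at day 3 and to 8.23 to 15.8 CPM in the other groups. The fibroblast and smooth muscle list summed to 87.7 to 88.7 CPM in vehicle and 61.6 to 70.1 CPM with AA at day 1, and to 96.2 to 104 and 72.0 to 86.5 CPM at day 3. The part of these cells in the results below was not tested.

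At day 1, 5349 genes (37.1% of those tested) differed between AA and vehicle, 2825 higher (19.6%) and 2524 lower (17.5%) with AA. At day 3 the count was 5535 (38.4%), with 2916 higher (20.2%) and 2619 lower (18.1%). These counts are alike, but they do not hold the same genes. The response at day 3 differed from that at day 1 for 1983 genes (13.7%), more positive at day 3 for 985 (6.83%) and more negative for 998 (6.92%), each past a Benjamini-Hochberg adjusted p of 0.05 in edgeR's quasi-likelihood test of the difference itself. The median size of a called difference was 0.48 on the log2 scale and the smallest was 0.21, against a median standard error of 0.13. Differences of at least 1 on the log2 scale, a doubling or halving of the response, were called for 317 genes, and 257 of these were more negative at day 3 while 60 were more positive. Across all genes the log2 fold changes of the days had a Pearson correlation of 0.62 and a Spearman correlation of 0.53, as a description of genes, which are not independent replicates.

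Each gene called on at least 1 day (7614 genes) was sorted by the calls of day 1, day 3 and the difference. A response is termed persistent where AA acted in the same direction on both days and no difference was called. That class was the largest, with 1359 rises and 1189 falls, and for 70.9% of those rises and 78% of those falls the 95% interval of the difference lay within a factor of 1.5 in either direction. A response is late where only day 3 was called (384 rises, 259 falls) and transient where only day 1 was called (308 rises, 274 falls), in both cases with a called difference. Among responses called on both days, 192 rises and 77 falls grew, 261 rises and 40 falls faded, and 152 genes reversed, 74 from higher to lower with AA and 78 from lower to higher. For a further 1273 rises and 1846 falls a response was called on 1 day only and the difference was not, so their time course is undecided. The day 3 response of late rises had a median log2 fold change of 0.41 and that of late falls -0.56. Fading rises were larger, with a median of 1.16 at day 1 and 0.54 at day 3, and 157 of the 261 were at least doubled at day 1. Some counts rest on single libraries. Transient rises came to 204 without AA replicate 2 of day 1 and 205 without AA replicate 3 of day 1. Growing falls came to 40 without AA replicate 1 or replicate 3 of day 1, 46 without AA replicate 2 of that day, 43 without vehicle replicate 1 and 51 without vehicle replicate 2 of day 1. Reversed rises came to 47 without vehicle replicate 3 or AA replicate 2 of day 1 and to 48 without AA replicate 1 of day 1.

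**Figure D1:**
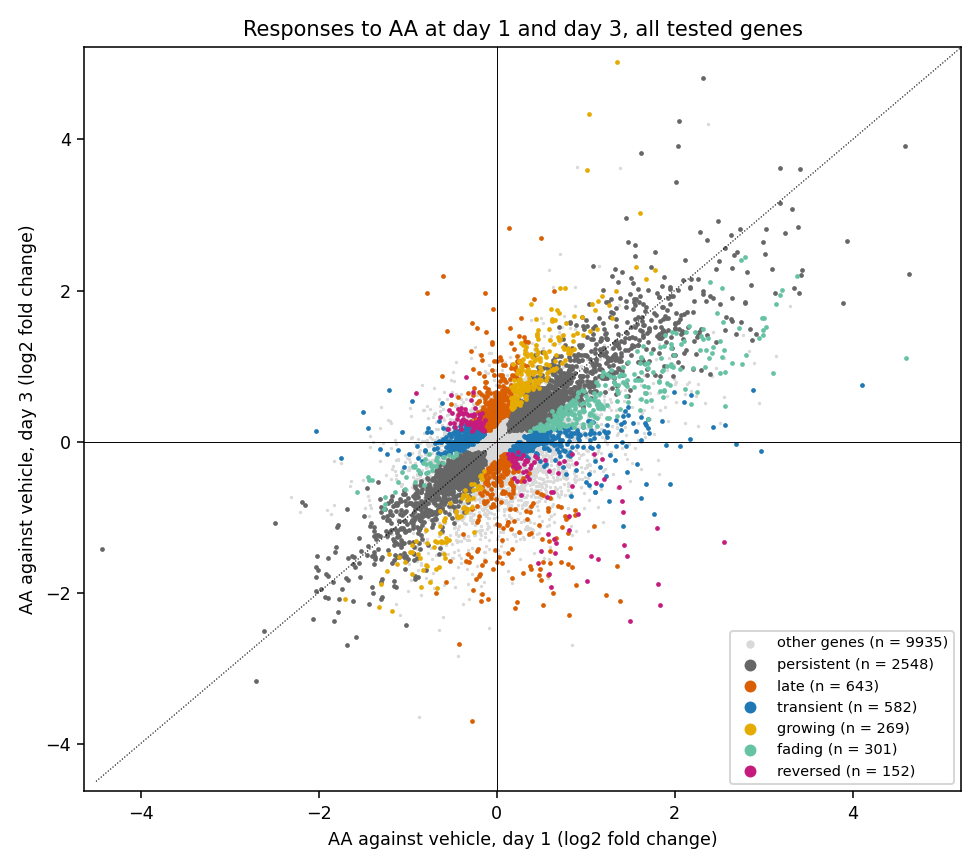
Log2 fold change of AA against vehicle at day 1 (x axis) and at day 3 (y axis) for all 14430 genes tested, 1 point per gene, coloured by class of response, with equal responses on the dotted line. The 2548 persistent genes lie along the line, the 643 late genes beside the vertical axis and the 582 transient genes beside the horizontal axis.

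A difference between responses can come from the treated organoids, from the untreated ones, or from both. The vehicle group was not still: 5320 genes (36.9%) changed in vehicle from day 1 to day 3, 2779 upward (19.3%) and 2541 downward (17.6%), and 4828 (33.5%) changed in AA, 2469 upward (17.1%) and 2359 downward (16.3%). Of the 1983 genes whose response differed between days, 724 (36.5%) changed between days in vehicle only and 695 (35%) in AA only. Another 237 (12%) changed in opposite directions in the groups, 271 (13.7%) in the same direction by unequal amounts, and for 56 (2.82%) neither change was called by itself. Vehicle was the group with the larger change in 978 of the 1983 (49.3%).

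The balance was not the same in every class. Late falls were most often a matter of vehicle, with 142 of 259 changing in vehicle only and 67 in AA only, and 175 of them rose in vehicle. Growing falls were similar, with 43 of 77 in vehicle only and 66 rising in vehicle. Fading rises were more often a matter of AA: 121 of 261 changed in AA only against 68 in vehicle only, and 180 fell in AA from day 1 to day 3. Late rises were mixed, with 126 of 384 in vehicle only and 141 in AA only. In the reversed genes that were first higher with AA, 56 of 74 rose in vehicle and 41 fell in AA, whereas in those first lower with AA, 62 of 78 rose in AA and 32 fell in vehicle. These counts describe the classes, and the differences between classes were not tested.

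**Figure D2:**
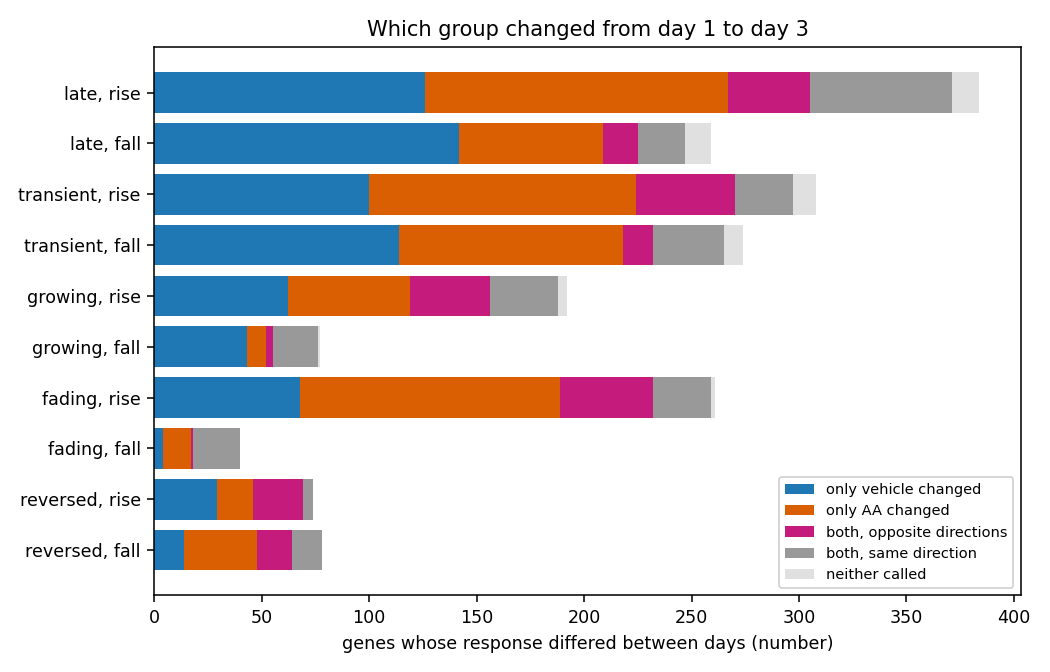
Number of genes (x axis) in each class of response whose difference between days was called, split by the group that changed from day 1 to day 3 in the test of that group. Among the 259 late falls, 142 changed in vehicle only, and among the 261 fading rises, 121 changed in AA only.

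Genes of early signalling and of the fetal-like programme are described first, and they make up a small part of the rises that faded or passed. Counts of each list are to be read beside the shares over all genes. These were 6.83% more positive and 6.92% more negative at day 3. With AA, 19.6% rose and 17.5% fell at day 1, and 20.2% rose and 18.1% fell at day 3. Of 19 tested immediate early genes, which encode transcription factors and phosphatases induced within minutes of a stimulus, 16 rose and 0 fell with AA at day 1 (median log2 fold change 1.05, against -0.01 over all genes) and 12 rose and 2 fell at day 3 (median 0.34, against -0.02). For 13 of the 19 the response was more negative at day 3, for 0 more positive (median difference -0.70, against -0.02). The list moved from both sides, with a median change from day 1 to day 3 of 0.34 in vehicle and -0.32 in AA. Klf6, a zinc finger transcription factor (ENSMUSG00000000078), stood at 61.5, 62.8 and 62.0 CPM in the day 1 vehicle libraries and at 198, 209 and 201 CPM with AA. At day 3 it stood at 81.8, 67.7 and 86.9 CPM in vehicle and at 94.5, 94.9 and 102 CPM with AA. The groups did not overlap on either day, but at day 3 the lowest AA library was close to the highest vehicle library. The response of Klf6 was 1.71 ± 0.07 (log2, standard error) at day 1 and 0.30 ± 0.07 at day 3, a difference of -1.40 ± 0.10 (adjusted p = 5.9e-09).

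Of 18 tested YAP/TEAD targets, 16 rose and 1 fell at day 1, 8 rose and 0 fell at day 3, and 11 had a more negative response at day 3 (median difference -0.67), 6 of them transient and 5 fading. Edn1, which encodes the vasoactive peptide endothelin 1 (ENSMUSG00000021367), stood at 15.3, 13.1 and 16.5 CPM in vehicle and 62.2, 59.2 and 65.6 CPM with AA at day 1. At day 3 it stood at 19.5, 17.7 and 24.2 CPM in vehicle and 16.7, 21.9 and 20.6 CPM with AA. Every AA library was above every vehicle library at day 1, and the groups overlapped at day 3. The response of Edn1 went from 2.06 ± 0.10 to -0.06 ± 0.12 (difference -2.11 ± 0.16, adjusted p = 5.5e-08), with a fall of 1.67 ± 0.10 in AA and a rise of 0.44 ± 0.12 in vehicle, log2 in each case. Ccn1, a matricellular protein gene, had a response of 1.33 ± 0.10 at day 1 and -0.24 ± 0.12 at day 3, and its level fell in AA (-1.45 ± 0.10) while the vehicle change was 0.12 ± 0.12 (adjusted p = 0.42). Without AA replicate 2 of day 3 the day 3 response of Ccn1 was -0.37 and passed the test (adjusted p = 0.022), as it did with scaling by total counts alone (-0.31, 0.032), which would place the gene among the reversed ones. The related gene Ccn2 faded from 2.11 ± 0.12 to 1.33 ± 0.12.

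Ptgs2 encodes the inducible cyclooxygenase that starts prostaglandin synthesis from AA (ENSMUSG00000032487). Its day 1 levels were 3.28, 4.15 and 2.87 CPM in vehicle and 22.3, 26.6 and 23.4 CPM with AA. Its day 3 levels were 3.29, 3.06 and 4.28 CPM in vehicle and 7.44, 6.96 and 8.75 CPM with AA. Vehicle levels overlapped between days, and the AA libraries were above vehicle on both days but lower at day 3. The response fell from 2.80 ± 0.14 to 1.14 ± 0.17 (difference -1.66 ± 0.23, adjusted p = 3.3e-05), and the day 3 minus day 1 change was -1.63 ± 0.12 in AA and 0.03 ± 0.19 in vehicle.

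Among 20 tested genes of EGF family ligands and receptor feedback, 12 rose and 4 fell at day 1 and 10 rose and 3 fell at day 3. For 7 the rise faded, against 1.81% of all genes tested. These 7 include the ligand genes Areg and Hbegf, the receptor gene Egfr and Errfi1, whose product inhibits the receptor. Areg, the gene of amphiregulin (ENSMUSG00000029378), stood at 53.3, 51.6 and 55.3 CPM in vehicle and 189, 203 and 194 CPM with AA at day 1, and at 54.8, 42.5 and 55.8 CPM and 92.8, 94.1 and 108 CPM at day 3. AA was above vehicle in every library on both days, at a lower level at day 3. Its response of 1.87 ± 0.08 fell to 0.94 ± 0.08 (difference -0.93 ± 0.11, adjusted p = 1.2e-05), and the change between days was -0.99 ± 0.07 in AA against -0.06 ± 0.08 in vehicle. Errfi1 went from 0.91 ± 0.05 to 0.29 ± 0.06 in the same way (difference -0.61 ± 0.08, adjusted p = 1.2e-05). Egfr went from 0.97 ± 0.05 to 0.19 ± 0.05 (difference -0.78 ± 0.07), and the day 3 value was no longer called when libraries were scaled by total counts alone (0.12, adjusted p = 0.080).

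The cAMP response element, a palindrome bound by CREB family factors, is shown here because 3 genes with a fading rise, each from the cAMP/CREB, immediate early or EGF feedback lists, hold it just upstream of the transcription start. The stretches are promoter sequence from RefSeq on GRCm38.p6, given 5′ to 3′ on the strand of the gene, with the element in capitals. They lie at chr5:91139499-91139598 (plus strand) for Areg, chr4:150854970-150855069 (plus strand) for Errfi1 and chr17:26508473-26508632 (minus strand) for Dusp1, a phosphatase gene of MAP kinase feedback.
Areg: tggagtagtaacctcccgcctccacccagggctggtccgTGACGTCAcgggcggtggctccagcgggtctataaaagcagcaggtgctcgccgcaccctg
Errfi1: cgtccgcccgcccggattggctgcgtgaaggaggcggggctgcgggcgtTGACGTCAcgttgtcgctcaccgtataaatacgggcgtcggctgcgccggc
Dusp1: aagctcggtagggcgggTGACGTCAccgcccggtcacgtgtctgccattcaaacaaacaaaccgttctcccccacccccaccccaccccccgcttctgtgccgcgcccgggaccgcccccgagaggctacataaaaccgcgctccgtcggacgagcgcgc
TGACGTCA, searched on both strands from 250 bases before to 50 bases after each start, was present in 3.05% of the 12718 promoters of tested genes with an entry in the table. It was present in 17.6% of the 17 promoters of the immediate early list, which is 3 promoters. The share was 12.5% of 16 promoters for the cAMP/CREB list and 11.8% of 17 for the EGF list, 2 promoters each. It was 1.85% of the 270 promoters of all fading rises and 1.70% of the 294 of transient rises, so the element did not set those classes as a whole apart. The list shares rest on few promoters, and none of the shares carries a test. Dusp1 stood at 1.46 to 2.33 CPM in vehicle and 8.92 to 11.3 CPM with AA at day 1 and at 2.79 to 3.33 and 6.63 to 10.2 CPM at day 3. Its response went from 2.38 ± 0.20 to 1.37 ± 0.19 (difference -1.01 ± 0.29, adjusted p = 0.022). That call for Dusp1 was lost when any of 5 libraries was left out: AA replicate 2 (difference -0.90, adjusted p = 0.065) or vehicle replicate 2 (-0.83, 0.083) of day 1, or AA replicate 1 (-0.87, 0.056), AA replicate 2 (-0.90, 0.053) or vehicle replicate 3 (-0.95, 0.057) of day 3.

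The fetal-like list, genes of the fetal and regenerating gut epithelium, is where fading should be read beside persistence. Of 25 tested genes 22 rose and 1 fell on each day, with a median response of 1.83 at day 1 and 1.04 at day 3, and 11 rises faded while 10 persisted. That split depended on the settings, as the number of more negative responses, 11 here, ran from 9 to 16 over the alternatives. It was 16 with a stricter filter and without AA replicate 3 of day 3. Plaur, the urokinase receptor gene, stood at 35.7, 37.4 and 35.5 CPM in vehicle and 136, 137 and 137 CPM with AA at day 1, and at 39.5, 34.7 and 41.4 CPM and 73.9, 75.3 and 81.1 CPM at day 3. AA was above vehicle in every library of both days, at a lower level at day 3. The response of Plaur fell from 1.92 ± 0.06 to 1.00 ± 0.06 (difference -0.92 ± 0.09, adjusted p = 4.4e-07), with an AA change of -0.83 ± 0.06 and a vehicle change of 0.09 ± 0.07 (adjusted p = 0.32). Anxa1, an annexin gene, faded by a similar amount (-0.99 ± 0.14, adjusted p = 0.00014) with a rise of 0.81 ± 0.10 in vehicle, while the AA change of -0.18 ± 0.09 did not pass (adjusted p = 0.15). That AA change of Anxa1 passed without AA replicate 3 of day 3 (-0.29, 0.016), without a filter (-0.19, 0.011) and with a replicate block (-0.19, 0.014). Similar fading in these genes thus went with different movements of the groups.

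Among the named genes the difference with the smallest p was a reversal. Thbs1, which encodes the matrix glycoprotein thrombospondin 1 (ENSMUSG00000040152), stood at 38.0, 37.2 and 36.8 CPM in vehicle and 103, 109 and 97.3 CPM with AA at day 1. At day 3 it stood at 78.4, 74.7 and 90.4 CPM in vehicle and 28.2, 29.2 and 27.6 CPM with AA. The groups were fully apart on both days and changed places. Its response turned from 1.46 ± 0.07 to -1.52 ± 0.07 (difference -2.98 ± 0.10, a factor of 7.90, adjusted p = 6.1e-15), with a rise of 1.12 ± 0.07 in vehicle and a fall of 1.86 ± 0.07 in AA. Creb5, a CREB family transcription factor gene, turned in the same way at lower levels: 1.43 to 1.61 CPM in vehicle and 5.20 to 5.62 CPM with AA at day 1, 6.19 to 9.08 and 2.73 to 3.83 CPM at day 3 (difference -2.96 ± 0.27, adjusted p = 2.3e-07).

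**Figure D3:**
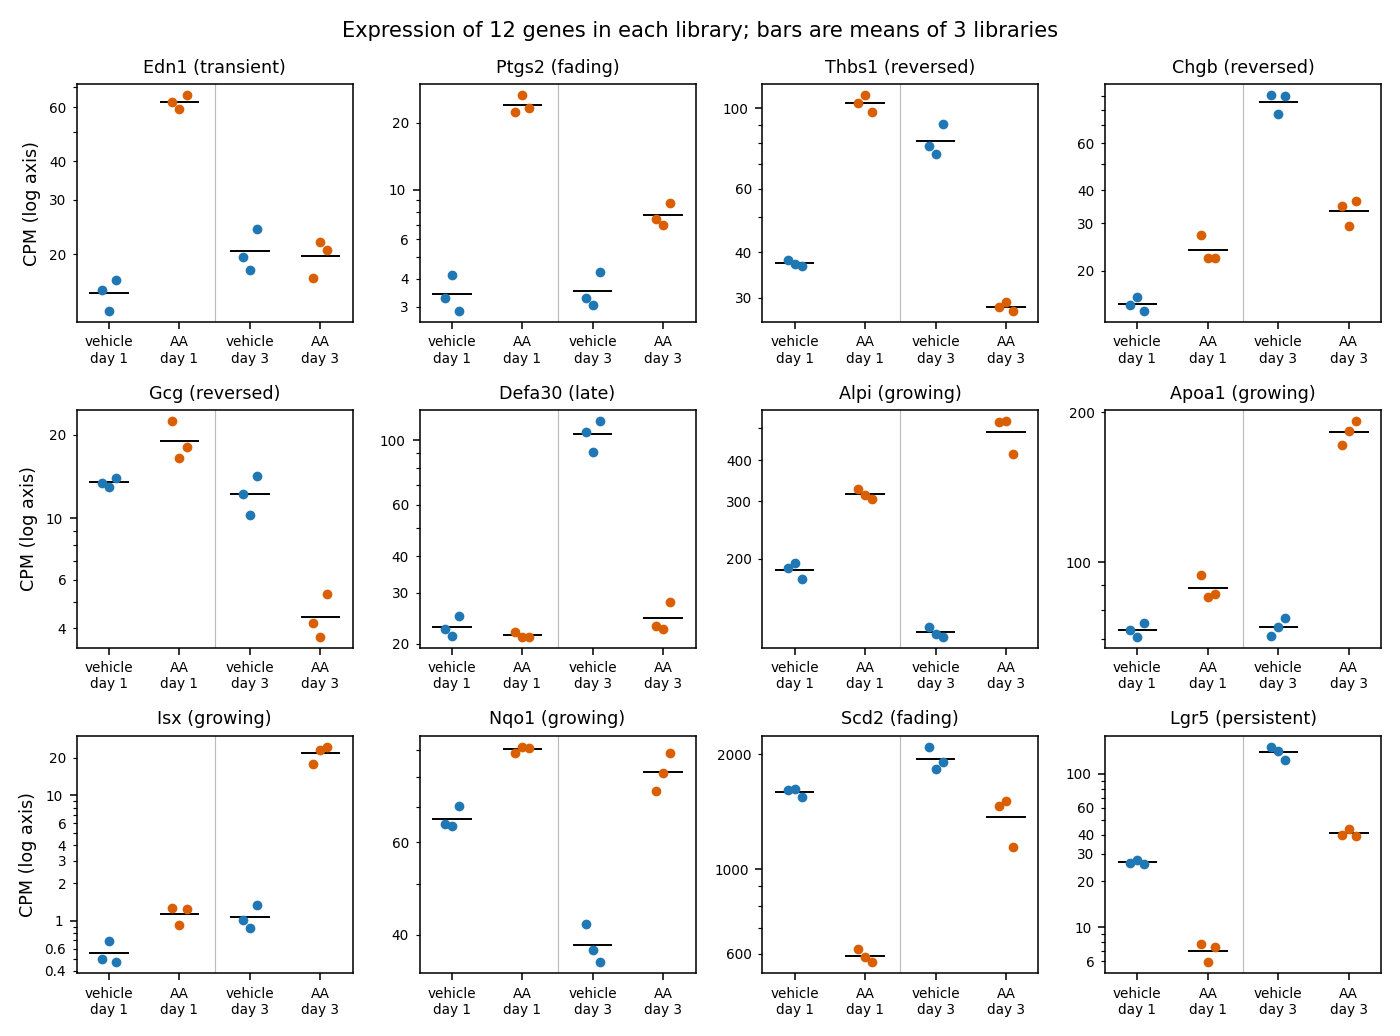
CPM on a log axis of 12 genes in each library of vehicle (blue) and AA (orange) at days 1 and 3, 1 point per library, with bars at the mean of 3 libraries. Edn1 is raised with AA at day 1 only, Thbs1 and Chgb change sides between days, Defa30 rises in vehicle alone, and Lgr5 rises in both groups at a constant distance.

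Some falls were smaller at day 3 or no longer called. Scd1 and Scd2 encode stearoyl-CoA desaturases, which make monounsaturated fatty acids. Scd1 stood at 315, 332 and 285 CPM in vehicle and 109, 102 and 103 CPM with AA at day 1, and at 437, 382 and 405 CPM and 272, 286 and 211 CPM at day 3. AA was below vehicle in every library, by less at day 3. Its response went from -1.56 ± 0.09 to -0.67 ± 0.09 (difference 0.89 ± 0.13, adjusted p = 0.00015), and AA rose by 1.29 ± 0.09 between days while vehicle rose by 0.39 ± 0.09. The response of Scd2 went from -1.43 ± 0.09 to -0.50 ± 0.09 (difference 0.92 ± 0.12, adjusted p = 2.1e-05). Of 24 tested genes of fatty acid synthesis and desaturation, 15 fell and 4 rose at day 1 and 11 fell and 7 rose at day 3. Of the falls, 8 persisted, and 8 members in all had a more positive response at day 3 with 0 more negative.

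Among 26 genes of the unfolded protein and integrated stress responses, 15 fell and 2 rose with AA at day 1, and 8 had a more positive and 1 a more negative response at day 3. Chac1 encodes a glutathione-degrading enzyme induced by ATF4 (ENSMUSG00000027313). It stood at 14.1, 13.2 and 17.9 CPM in vehicle and 5.12, 5.13 and 6.30 CPM with AA at day 1, and at 9.72, 7.68 and 8.38 CPM and 9.72, 10.2 and 9.45 CPM at day 3. The groups were apart at day 1 and met at day 3. The response of -1.45 ± 0.13 became 0.18 ± 0.14 (difference 1.62 ± 0.19, adjusted p = 5.0e-06), with vehicle down by 0.80 ± 0.13 and AA up by 0.82 ± 0.14. Trib3, a pseudokinase gene of the same pathway, went from -1.31 ± 0.13 to -0.10 ± 0.11 through AA, which rose by 1.38 ± 0.13, while the vehicle change of 0.17 ± 0.11 did not pass the test (adjusted p = 0.25). Atf3, which also stands in the immediate early list, was the exception, with a difference of -1.19 ± 0.22.

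Among the mature enterocyte genes, 5 responses were late rises and 10 were rises that grew. Of 29 tested genes of digestion and absorption, 16 rose and 2 fell with AA at day 1 (median 0.29; 4 fell when any of the 3 AA libraries of day 3 was left out) and 22 rose and 1 fell at day 3 (median 0.86), and for 15 the response was more positive at day 3, for 0 more negative (median difference 0.55). The median change between days was 0.06 in vehicle and 0.54 in AA. In bulk RNA, more or fewer cells of a type and more or less RNA per cell cannot be told apart, and this holds for each cell type list. Alpi encodes intestinal alkaline phosphatase of the brush border (ENSMUSG00000079440). It stood at 187, 194 and 173 CPM in vehicle and 326, 313 and 304 CPM with AA at day 1, and at 124, 118 and 115 CPM and 524, 527 and 417 CPM at day 3. The groups separated further by movement of both. Its response grew from 0.77 ± 0.08 to 2.04 ± 0.08 (difference 1.27 ± 0.11, adjusted p = 9.4e-08), with vehicle down by 0.64 ± 0.08 and AA up by 0.64 ± 0.07. Alpi has the near-identical neighbour Akp3, and the handling of reads that match both is not known, so the share of each is uncertain.

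Slc3a1, the heavy subunit gene of a cystine and dibasic amino acid transporter (ENSMUSG00000024131), stood at 36.2, 38.6 and 39.6 CPM in vehicle and 48.6, 45.6 and 45.6 CPM with AA at day 1, and at 38.0, 35.3 and 36.8 CPM and 71.0, 73.5 and 68.2 CPM at day 3. The vehicle libraries of the days overlapped, and the AA libraries were higher at day 3 than at day 1. The response grew from 0.29 ± 0.06 to 0.95 ± 0.06 (difference 0.66 ± 0.09, adjusted p = 2.2e-05). The promoters of Alpi and Slc3a1 are shown because both hold an HNF4 motif, in capitals, within 50 bases of the start, and because HNF4 factors are known regulators of enterocyte genes. They are RefSeq sequence on GRCm38.p6, chr1:87101607-87101706 (minus strand) for Alpi and chr17:85028247-85028346 (plus strand) for Slc3a1.
Alpi: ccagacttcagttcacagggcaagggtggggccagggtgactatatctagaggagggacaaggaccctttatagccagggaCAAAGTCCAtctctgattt
Slc3a1: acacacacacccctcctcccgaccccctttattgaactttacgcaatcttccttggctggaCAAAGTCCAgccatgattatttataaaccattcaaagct
CAAAGTCCA, on both strands of the same window, was present in 0.487% of the promoters of tested genes, in 1.44% of the 416 promoters of late rises, in 2.0% of the 200 of growing rises and in 9.38% of the 32 of the enterocyte list, which is 3 promoters. These shares rest on few promoters and carry no test.

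Of 25 tested transcription factors of intestinal identity, 11 had a more positive and 1 a more negative response at day 3 (median difference 0.29), and the median change between days was 0.23 in AA against 0.03 in vehicle. Cdx2, a homeobox gene that defines intestinal epithelium (ENSMUSG00000029646), stood at 118, 121 and 118 CPM in vehicle and 94.8, 96.8 and 101 CPM with AA at day 1, and at 131, 118 and 121 CPM and 136, 143 and 161 CPM at day 3. The AA libraries were all below vehicle at day 1 and all above it at day 3. Its response turned from -0.29 ± 0.06 to 0.25 ± 0.06 (difference 0.54 ± 0.09, adjusted p = 0.00021), by a rise of 0.59 ± 0.06 in AA alone. For Hnf4a the difference was 0.42 ± 0.08 (adjusted p = 0.0016), with a day 1 response of -0.26 ± 0.06. Its day 3 response of 0.16 ± 0.06 (adjusted p = 0.039) did not pass when libraries were scaled by total counts alone (0.08, 0.25), with only the day 3 groups in the fit (0.15, 0.12), nor without AA replicate 1 (0.15, 0.067), AA replicate 2 (0.13, 0.096) or vehicle replicate 2 (0.12, 0.074) of day 3. Hnf4g, its paralogue, grew from 0.35 to 0.92 (difference 0.58, adjusted p = 0.00038).

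Of 17 tested genes of apolipoproteins and chylomicron assembly, 13 rose at day 1 and 17 at day 3 with 0 falls on either day, and 12 responses were more positive at day 3, while 1 was more negative, that of the lipid droplet gene Plin2, whose rise faded. Apoa1, the main protein gene of high density lipoprotein (ENSMUSG00000032083), stood at 73.1, 70.8 and 75.5 CPM in vehicle and 94.0, 85.3 and 86.2 CPM with AA at day 1, and at 71.0, 74.0 and 77.2 CPM and 172, 183 and 192 CPM at day 3. The vehicle libraries of the days overlapped, and the AA libraries of day 3 stood above all others. The response grew from 0.28 ± 0.06 to 1.30 ± 0.06 (difference 1.03 ± 0.08, adjusted p = 5.9e-08), with an AA change of 1.04 ± 0.06.

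Genes of retinoid metabolism included 1 of the largest differences. Isx encodes an intestinal homeobox factor that represses vitamin A uptake and conversion (ENSMUSG00000031621). It stood at 0.499, 0.692 and 0.465 CPM in vehicle and 1.26, 0.918 and 1.25 CPM with AA at day 1, and at 1.02, 0.873 and 1.33 CPM and 17.8, 23.2 and 24.4 CPM at day 3. The day 3 AA libraries stood far above the other 9, which lay at 0.465 to 1.33 CPM and rest on few reads. The difference was 3.29 ± 0.47 (adjusted p = 5.3e-05) and the day 3 response 4.34 ± 0.19. The small day 1 response of Isx, 1.04 ± 0.35 (adjusted p = 0.021), lost its call when vehicle replicate 1 (0.95, 0.071), vehicle replicate 3 (0.92, 0.076), AA replicate 1 (0.94, 0.072) or AA replicate 3 (0.96, 0.067) of that day was left out, and with limma voom (1.01, 0.062), which leaves Isx late rather than growing. Of 13 tested members 6 had a more positive and 1 a more negative response at day 3, beside 6.83% and 6.92% of all genes. In others of them the untreated organoids moved: Rbp7, a retinoid-binding protein gene, stood at 5.74 to 6.61 CPM in vehicle and 5.19 to 6.05 CPM with AA at day 1, then at 1.4 to 2.29 and 4.54 to 5.82 CPM at day 3. Its late response of 1.45 ± 0.19 was thus a fall of 1.68 ± 0.19 in vehicle beside a change of -0.12 ± 0.16 in AA. For Rbp2, the cellular retinol-binding protein gene of enterocytes, vehicle likewise fell by 0.68 ± 0.06 and the AA change of -0.11 ± 0.05 did not pass (adjusted p = 0.14).

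Of 24 tested genes of the prostanoid and eicosanoid pathway, 9 had a more positive and 1 (Ptgs2) a more negative response at day 3, while 14 had no called difference. Over all genes the shares were 6.83% more positive and 6.92% more negative. Of the 9, 4 were late rises and 3 were rises that grew. Cyp4f14, a cytochrome P450 hydroxylase gene of eicosanoids and leukotriene B4 (ENSMUSG00000024292), stood at 105, 118 and 109 CPM in vehicle and 122, 109 and 112 CPM with AA at day 1, and at 111, 100 and 110 CPM and 245, 242 and 214 CPM at day 3. The groups overlapped at day 1, and every AA library was above every vehicle library at day 3. The response went from 0.04 ± 0.07 to 1.13 ± 0.07 (difference 1.08 ± 0.09, adjusted p = 9.4e-08). Ephx2, which encodes the soluble epoxide hydrolase that breaks down AA epoxides, went from 0.09 ± 0.07 to 1.02 ± 0.07 (difference 0.93 ± 0.10), Cbr1, a carbonyl reductase gene, had a difference of 0.67, and Cyp2j6, a P450 gene, one of 0.56. The response of Ptgs2 and those of these 4 genes thus changed in opposite directions between the days.

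In the NRF2 and glutathione list, 10 of the 20 called genes changed in vehicle only and 2 in AA only. Of 27 tested genes 10 rose and 4 fell with AA at day 1 (median 0.06), 23 rose and 0 fell at day 3 (median 0.42), and the response was more positive for 19 and more negative for 1. Between days 22 of the 27 fell in vehicle (median -0.34), while 10 rose and 3 fell in AA (median 0.15). The day 1 falls numbered 7 with total counts alone, with all 18 libraries, and without vehicle replicate 2 of day 1, vehicle replicate 2 of day 3 or AA replicate 1 of day 3. Nqo1, a quinone reductase gene (ENSMUSG00000003849), stood at 64.8, 64.3 and 70.2 CPM in vehicle and 88.5, 91.2 and 90.6 CPM with AA at day 1, and at 42.0, 37.4 and 35.4 CPM and 75.2, 81.1 and 88.7 CPM at day 3. Its response grew from 0.44 ± 0.07 to 1.09 ± 0.07 (difference 0.65 ± 0.10, adjusted p = 8.2e-05) through a fall of 0.79 ± 0.07 in vehicle. The AA change of Nqo1, -0.14 ± 0.06 (adjusted p = 0.10), passed the test only without AA replicate 3 of day 3 among the alternatives run (-0.21, 0.014). Glutathione transferase genes went further, as Gstm1 turned from -0.43 ± 0.07 to 0.43 ± 0.07 by a rise of 0.76 ± 0.07 in AA, and Gsta4 grew by 0.79 ± 0.09. These genes have near-identical relatives, so the split of reads among them is uncertain.

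Cholesterol genes were more often lower with AA at day 1 and more often higher at day 3. Of 28 tested genes of synthesis and uptake 13 fell and 2 rose with AA at day 1 and 3 fell and 10 rose at day 3, with 4 rises at day 3 when libraries were scaled by total counts alone, and 16 responses were more positive at day 3 (median 0.39), 6 as late rises and 6 as transient falls. Abcg5 and Abcg8, the paired genes of the sterol exporter, were late: Abcg5 stood at 49.6 to 53.4 CPM in vehicle and 45.8 to 52.1 CPM with AA at day 1, then at 55.1 to 57.2 and 76.2 to 92.0 CPM at day 3 (difference 0.71 ± 0.10, adjusted p = 3.4e-05). Under several alternatives Abcg8 was called lower with AA at day 1, which would place it among the reversed genes. Among these were all 18 libraries (-0.23, adjusted p = 0.025) and the fit without AA replicate 1 of day 1 (-0.29, 0.030). Mvd, a mevalonate pathway enzyme gene, was transient, with a response of -0.63 ± 0.07 at day 1 and 0.00 ± 0.07 at day 3. Fatty acid oxidation genes shared the direction, with 12 of 32 more positive and 0 more negative (median 0.30), 8 of these 12 changing in AA only. The peroxisomal thiolase gene Acaa1b was late, at 3.07 to 4.42 CPM in all day 1 libraries and 4.61 to 4.8 CPM in vehicle against 10 to 14.3 CPM with AA at day 3 (difference 1.37 ± 0.25, adjusted p = 0.00075).

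Glycolysis and hypoxia genes rose between days in both groups, all 26 tested in each, with a median of 0.87 in vehicle and 1.28 in AA. The response was more positive at day 3 for 11 and more negative for 3, and all 14 changed in the same direction in vehicle and AA by unequal amounts. Ldha, the lactate dehydrogenase A gene, stood at 758 to 849 CPM in vehicle and 783 to 821 CPM with AA at day 1, then at 1021 to 1307 and 1720 to 1860 CPM at day 3. Its change was 0.54 ± 0.08 in vehicle and 1.15 ± 0.08 in AA (difference 0.62 ± 0.11, adjusted p = 0.00053). Pfkfb3, a regulator gene of glycolytic flux, went the other way, with a change of 2.20 ± 0.10 in vehicle and 1.23 ± 0.09 in AA, so that a response of 0.91 ± 0.11 at day 1 was gone at day 3 (-0.06 ± 0.08).

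For enteroendocrine genes the response to AA went from mixed at day 1 to mostly lower at day 3. Of 29 tested enteroendocrine genes, which encode hormones, granule proteins and lineage transcription factors, 11 rose and 8 fell with AA at day 1 (median 0.13), and 1 rose and 24 fell at day 3 (median -1.35). With a stricter filter 14 falls at day 3 and 13 rises in vehicle were called, as fewer of the genes were tested. The 11 rises became 7 with DESeq2 and without vehicle replicate 2 or vehicle replicate 3 of day 1. The response was more negative at day 3 for 16, more positive for 0, and the median difference of -1.10 is set beside -0.02 over all genes. Between days 24 of the 29 rose and 1 fell in vehicle (median 1.35), against 4 rises and 4 falls in AA (median 0.37), and of the 16 called genes 11 changed in vehicle only and 1 in AA only.

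Chgb encodes the granule protein chromogranin B (ENSMUSG00000027350). It stood at 14.9, 16.0 and 14.1 CPM in vehicle and 27.1, 22.2 and 22.2 CPM with AA at day 1, and at 90.6, 77.0 and 89.8 CPM and 34.9, 29.3 and 36.3 CPM at day 3. The AA libraries lay above vehicle at day 1 and below it at day 3 although both groups rose. Its response turned from 0.67 ± 0.11 to -1.35 ± 0.09 (difference -2.02 ± 0.14, adjusted p = 6.9e-09), with a rise of 2.52 ± 0.09 in vehicle and 0.50 ± 0.10 in AA. Chga, the chromogranin A gene, turned likewise (difference -2.06 ± 0.18, adjusted p = 9.4e-08), with a rise of 1.90 ± 0.12 in vehicle and no called change in AA (-0.17 ± 0.13, adjusted p = 0.36). The day 1 response of Chga, 0.46 ± 0.13 (adjusted p = 0.0085), did not pass without vehicle replicate 3 of day 1 (0.34, 0.066).

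Gcg, the proglucagon gene of L cells (ENSMUSG00000000394), was the 1 called enteroendocrine gene that changed in AA only. It stood at 13.4, 13.0 and 14.0 CPM in vehicle and 22.5, 16.5 and 18.1 CPM with AA at day 1, and at 12.2, 10.3 and 14.2 CPM and 4.20, 3.73 and 5.31 CPM at day 3. Vehicle overlapped between days, and AA went from above it to below it. The difference was -1.95 ± 0.20 (adjusted p = 1.1e-06) and the AA change -2.09 ± 0.15, while the day 1 response of Gcg, 0.50 ± 0.12, did not pass in a fit of all 18 libraries of both days (0.47, adjusted p = 0.064). Not every lineage gene turned. Neurog3, the transcription factor gene that starts enteroendocrine fate, stood lower with AA on both days, at -1.90 ± 0.15 and -1.54 ± 0.15, with an interval of the difference from -0.11 to 0.82.

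A cAMP response element also stands in the promoters of Chgb and Scg2, the secretogranin II gene, and these are shown because both genes turned from higher to lower with AA. Scg2 stood at 1.78 to 2.92 CPM in vehicle and 2.83 to 4.49 CPM with AA at day 1, overlapping, and at 3.23 to 4.83 and 1.17 to 1.31 CPM at day 3, with a difference of -2.34 ± 0.35 (adjusted p = 7.8e-05). Its day 1 response, 0.59 ± 0.23 (adjusted p = 0.045), failed under 11 of the alternatives, with values from 0.38 without vehicle replicate 3 of day 1 to 0.62 without vehicle replicate 2 of day 1. The sequences are RefSeq on GRCm38.p6, chr2:132781542-132781641 (plus strand) for Chgb and chr1:79440027-79440126 (minus strand) for Scg2, with the element in capitals.
Chgb: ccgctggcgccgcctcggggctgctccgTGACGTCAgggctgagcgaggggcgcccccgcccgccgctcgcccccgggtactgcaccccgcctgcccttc
Scg2: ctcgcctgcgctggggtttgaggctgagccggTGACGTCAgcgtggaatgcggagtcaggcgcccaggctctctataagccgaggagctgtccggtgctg
The element was present in 13.8% of the 29 promoters of the enteroendocrine list, 4 promoters, beside the 3.05% of all promoters of tested genes. In the 93 promoters of all genes that turned from higher to lower with AA the share was 4.3%, near that of all promoters. These shares carry no test.

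Paneth cell genes, which encode defensins, lysozyme and other antimicrobial products, rose between days in vehicle for 18 of 21 tested (median 1.81) and in AA for 14 (median 0.70). At day 1 AA lowered 6 and raised 3, at day 3 it lowered 17 and raised 4, and 11 responses were more negative at day 3 with 0 more positive (median difference -1.02). Defa30 (ENSMUSG00000074444) stood at 22.5, 21.4 and 24.9 CPM in vehicle and 21.9, 21.2 and 21.2 CPM with AA at day 1, and at 107, 91.2 and 116 CPM and 23.0, 22.6 and 27.9 CPM at day 3. Only the day 3 vehicle libraries stood out, as the other 9 lay within 21.2 to 27.9 CPM. The late fall of -2.09 ± 0.09 was a rise of 2.19 ± 0.09 in vehicle without a called change in AA (0.20 ± 0.10, adjusted p = 0.15). Defensin genes are near-identical copies, so Defa30 stands for reads of the family rather than of 1 gene with certainty. Lyz1, the lysozyme gene of Paneth cells, rose in both groups, by 1.88 ± 0.08 in vehicle and 1.11 ± 0.08 in AA, and its response grew from -0.57 ± 0.08 to -1.34 ± 0.08. Mmp7, the protease gene that activates defensins, grew from -0.64 ± 0.09 to -1.66 ± 0.08.

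Goblet cell genes showed no common shift. Of 17 tested, 3 responses were more positive and 3 more negative at day 3 (median 0.18), beside 6.83% and 6.92% of all genes. Between days 11 rose in vehicle and 14 in AA. The 3 more positive ones became 1 without vehicle replicate 3 or AA replicate 2 of day 1.

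Most of the crypt base columnar stem cell genes were lower with AA on each day, and the responses of 13 were more negative at day 3. Of 22 tested, 3 rose and 14 fell at day 1 (median -0.55; 1 rose without vehicle replicate 2, vehicle replicate 3 or any AA library of day 1), 0 rose and 17 fell at day 3 (median -0.70), and 13 responses were more negative (median difference -0.29) with 0 more positive. The 13 became 8 without AA replicate 1 of day 1. Lgr5, described below, had no called difference. The called difference of Olfm4 was lost under several alternatives, among them all 18 libraries of days 1 and 3 (-0.36, adjusted p = 0.091). For Ascl2 the day 3 response passed only without AA replicate 3 of day 3 among the alternatives run (-0.29, 0.044). Of 15 Wnt target genes, 7 were more negative, and 4 without AA replicate 1 of day 1. Clca3b, a calcium-activated chloride channel regulator gene (ENSMUSG00000037033), stood at 483, 473 and 442 CPM in vehicle and 279, 260 and 267 CPM with AA at day 1, and at 787, 828 and 876 CPM and 269, 279 and 254 CPM at day 3. The AA libraries of the days overlapped (change -0.01 ± 0.06) and vehicle rose by 0.83 ± 0.06, which took the response from -0.79 ± 0.06 to -1.64 ± 0.06 (difference -0.84 ± 0.09, adjusted p = 1.0e-06). Sox9, a crypt transcription factor gene, was a late fall of another kind, as its level fell in AA (-0.45 ± 0.08) and vehicle changed by 0.11 ± 0.07 (adjusted p = 0.28).

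**Figure D4:**
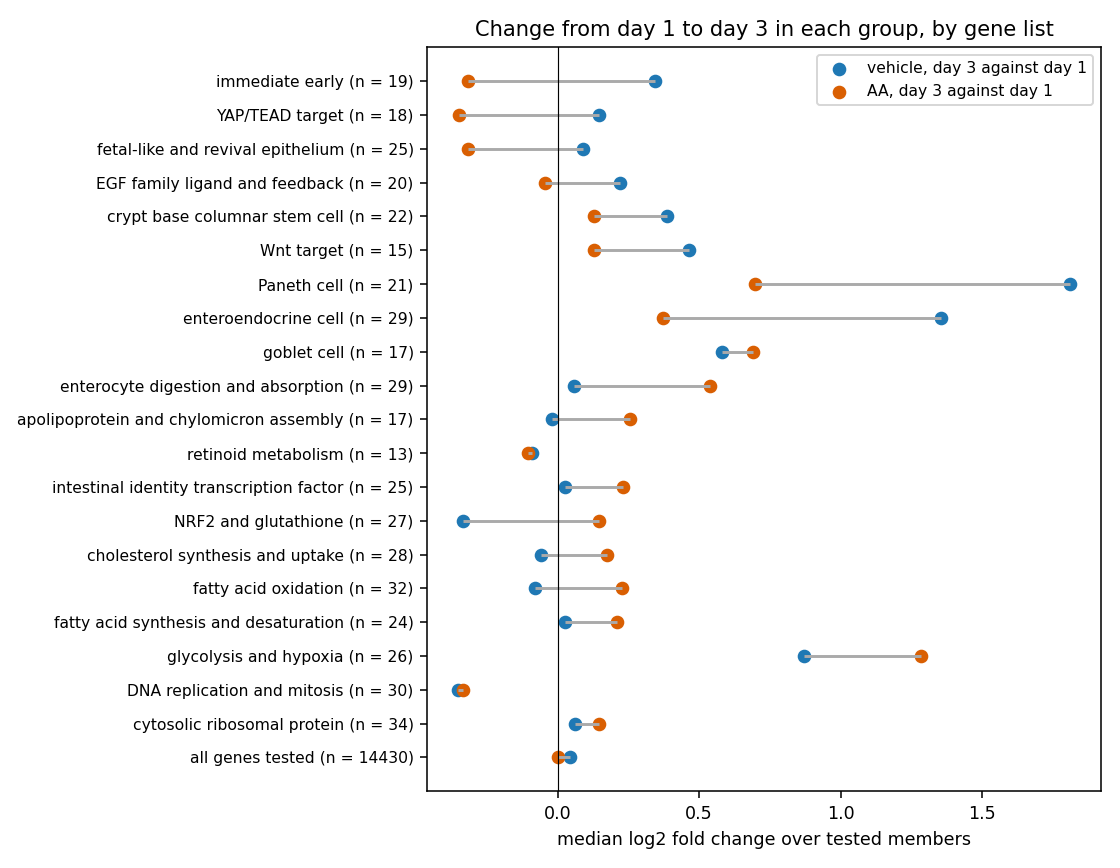
Median log2 fold change from day 1 to day 3 in vehicle (blue) and in AA (orange) over the tested members of each gene list, with all genes tested at the bottom. The enteroendocrine list stands at 1.35 in vehicle and 0.37 in AA, the Paneth cell list at 1.81 and 0.70, and the NRF2 list at -0.34 and 0.15.

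Persistent responses include some of the largest in the data. Il33, the gene of an alarmin cytokine, stood at 2.14 to 3.80 CPM in vehicle and 18.1 to 19.0 CPM with AA at day 1, and at 2.36 to 3.62 and 18 to 23.2 CPM at day 3. The responses of 2.63 ± 0.16 and 2.73 ± 0.16 differed by 0.10 with an interval from -0.42 to 0.62. Fads1, the delta-5 desaturase gene whose enzyme makes AA (ENSMUSG00000010663), stood at 192, 197 and 202 CPM in vehicle and 63.6, 65.3 and 65.5 CPM with AA at day 1, and at 234, 213 and 233 CPM and 83.9, 80.4 and 71.8 CPM at day 3. AA was below vehicle in every library of both days. Its responses of -1.61 ± 0.06 and -1.53 ± 0.06 differed by 0.08 (interval -0.10 to 0.26), in contrast to the fading falls of Scd1 and Scd2.

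A constant response can hide large movements. Lgr5, the stem cell receptor gene (ENSMUSG00000020140), stood at 26.4, 27.4 and 26.0 CPM in vehicle and 7.79, 5.89 and 7.4 CPM with AA at day 1, and at 150, 140 and 124 CPM and 39.8, 43.7 and 39.4 CPM at day 3. Both groups rose several-fold, by 2.38 ± 0.08 in vehicle and 2.53 ± 0.10 in AA. The responses of -1.91 ± 0.11 and -1.76 ± 0.07 differed by 0.16 (interval -0.12 to 0.43, adjusted p = 0.48). Axin2, the Wnt feedback gene, likewise rose by 0.48 ± 0.06 in each group under a response of -0.83 ± 0.06 and -0.84 ± 0.06 (interval of the difference -0.17 to 0.16).

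Proliferation genes gave differences between days not far from the 13.7% of all genes, and translation genes gave none with the main settings. All 30 tested genes of DNA replication and mitosis fell in vehicle between days (median -0.35) and 26 fell in AA (median -0.34), and 2 responses were more positive and 1 more negative at day 3. The 2 became 4 without AA replicate 1 of day 3, and 1 without vehicle replicate 3 or any AA library of day 1, or without vehicle replicate 1, vehicle replicate 2 or AA replicate 3 of day 3. The 1 became 0 without vehicle replicate 1, vehicle replicate 2, AA replicate 1 or AA replicate 3 of day 1, or without vehicle replicate 1, vehicle replicate 3, AA replicate 2 or AA replicate 3 of day 3. Mki67, the proliferation marker, had an interval of the difference from -0.29 to 0.14. Of 34 cytosolic ribosomal protein genes, 27 fell with AA at day 1, and 19 to 34 over the alternatives. For 0 of them a difference was called in edgeR, DESeq2 or limma voom, with 0 at an unadjusted p under 0.05 in edgeR. Over all alternatives at most 2 of the ribosomal genes were called more positive at day 3. Of 10 mitochondrially encoded protein genes 0 were called by edgeR, DESeq2 or limma voom, with 1 at an unadjusted p under 0.05 in edgeR. Over all alternatives at most 1 of these 10 was called.

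The day 6 libraries took no part in the classes and show how the genes stood later. Over all 14663 genes tested at day 6, 4507 (30.7%) differed between AA and vehicle, 15.3% higher and 15.5% lower with AA. Growing rises were the most often higher at day 6, in 77.8% of 189 genes tested there, and lower in 0.529%. Fading rises were next, higher in 66.2% of 240, ahead of persistent rises with 53.6% of 1214, so fading by day 3 did not mean an end by day 6. Fading rises had a median response of 1.16 at day 1 and persistent rises 0.53. A share of calls depends on the size of the responses, so the order of the classes does not compare their time courses. Late rises were higher in 41.3% of 380 and lower in 0.789%. Transient rises were higher in 24.1% of 294 and lower in 5.1%. With 1 library left out, their share higher ran from 17.3% without AA replicate 4 of day 6 to 25.8% without vehicle replicate 4 of day 6. The count of all genes called higher ran from 1663 to 2510 over the same runs.

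Growing falls were lower at day 6 in 55.8% of 77, persistent falls in 46.2% of 1182, fading falls in 40% of 40 and late falls in 29.1% of 254. Transient falls were lower in 18.2% of 274 and higher in 10.6%, a share lower near that of all genes. It was 9.12% without AA replicate 3 of day 6, 9.85% without AA replicate 4 and 11.3% without AA replicate 1, and without AA replicate 4 fading falls were lower in 25%. The count of all genes called lower at day 6 moved too. It was 2270 with all libraries and ran from 1536 to 2363 with 1 library left out. Shares with a library left out are thus not to be read against the 15.5% of the full set. Reversed genes that were called at day 6 more often had the sign of day 3 than that of day 1. Those first higher with AA were lower in 29.2% of 72 and higher in 6.94%, and lower in 17.8% without AA replicate 4 of day 6. Those first lower with AA were higher in 33.3% of 78 and lower in 6.41%.

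Single genes illustrate these shares. Alpi was higher with AA at day 6 (1.23 ± 0.07, adjusted p = 5.8e-07), as was Isx (2.14 ± 0.09, adjusted p = 1.7e-07), and Defa30 was lower (-2.01 ± 0.15, adjusted p = 4.1e-06). Areg and Plaur were higher (0.77 ± 0.07 and 1.20 ± 0.20). Gcg and Chga were lower (-1.32 ± 0.10 and -0.72 ± 0.07), while Thbs1 had no called response (0.27 ± 0.17, adjusted p = 0.23). Mitochondrial ribosomal RNA took 6.74% to 10.3% of counts at days 1 and 3 and 0.00305% to 0.266% at day 6, so day 6 is used only as a comparison of AA with vehicle inside its own libraries.

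**Figure D5:**
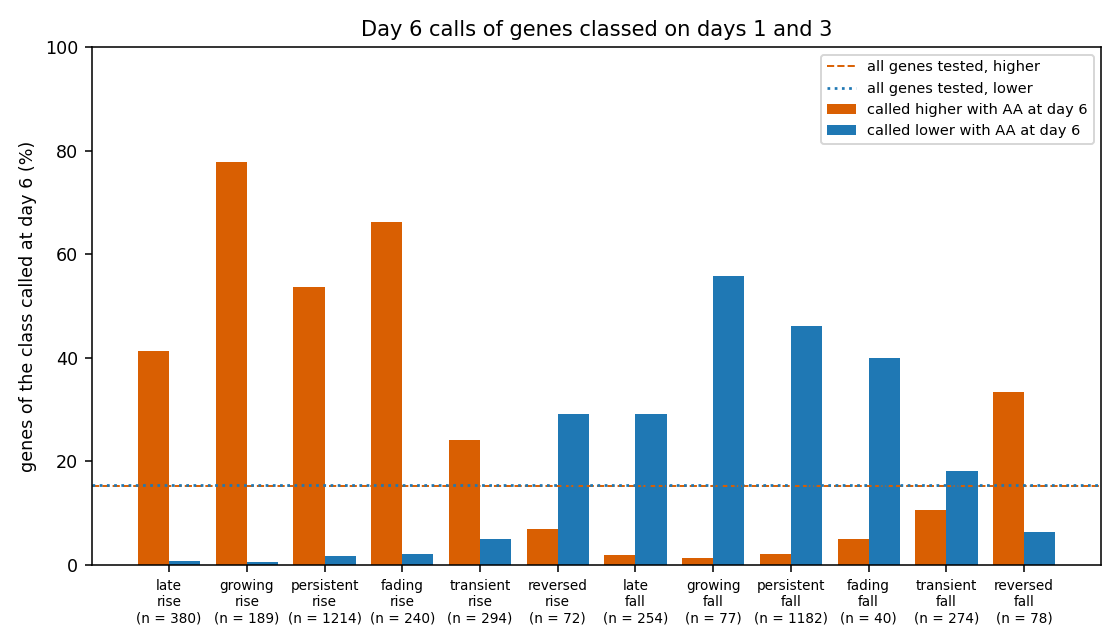
Percent of the genes of each class, as defined on days 1 and 3, that were called higher (orange) or lower (blue) with AA at day 6, with the number of class members tested at day 6 under each pair of bars and dashed and dotted lines at the shares of all genes tested, 15.3% and 15.5%. Growing rises reach 77.8% higher and growing falls 55.8% lower.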

How the data were processed

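The deposited values are counts of reads per gene, which the authors made before deposition; the tools listed per the submitters' processing notes, with no role attached, are cutadapt, STAR, DESeq2 and limma 3.46. Which program counted reads, and with what strand setting, is not given in the sources used, so reads of overlapping antisense genes could be mixed. The same notes list GRCh38.p6, which is human, although the identifiers are those of mouse Ensembl genes. Gene positions printed are therefore RefSeq promoter coordinates on GRCm38.p6, matched by gene symbol, and not those of the authors' files. Of 55385 identifiers 55144 (99.6%) had a gene name, 241 had none, and 0 library columns were unmatched.

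Counts of the 12 vehicle and AA libraries of days 1 and 3 were fitted in edgeR 4.0.16 (R 4.3.3): filterByExpr with the 4 groups (14430 genes), TMM scaling, robust quasi-likelihood fit with 1 mean per group and 8 residual degrees of freedom. The contrasts were the response at day 3 minus that at day 1, AA against vehicle on each day, and day 3 against day 1 within each group. They share libraries, so no overlap or correlation between them is read as a result except between days 1 and 3, which share none. P-values were adjusted by Benjamini-Hochberg over all genes tested, with a threshold of 0.05. Standard errors come from the quasi-likelihood F statistic, and intervals are 95% intervals. Genes are said to rise, fall or change only where they passed. Day 6 (8 libraries, 14663 genes, 6 residual degrees of freedom) was fitted separately. The code was tested on simulated data.

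Genes were named by rule: the 8 most positive and 8 most negative called differences with mean log2 CPM no lower than 1, up to 5 genes per class and direction with groups that do not overlap, up to 4 called members with the smallest p of each list with at least 3 called, and a fixed panel, 195 genes in all. The rule left out predicted genes. The 38 gene lists, the panel and the comparison itself were chosen with earlier results of these data known, so list counts are descriptions and carry no test of their own. Alternatives were other scalings, filters and tools (DESeq2 1.42.0, limma 3.58.1), a threshold of 0.01, a replicate block, all 18 libraries of days 1 and 3, only the groups of a contrast, the removal of rRNA-like and mitochondrial genes, and each library left out in turn.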

Additional observations from a re-analysis of the deposited data

Results flagged for a closer look

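The 1983 genes whose response to AA differed between day 1 and day 3 stand here because the difference between days was itself tested, and so do the 152 genes that were called on both days in opposite directions, 74 first higher and 78 first lower with AA. Some named genes were called on both days with opposite signs and had AA and vehicle libraries that did not overlap on either day. Those that turned from higher to lower with AA included Thbs1 (difference -2.98 on the log2 scale), Creb5 (-2.96), Scn3a (-2.86), Adgrg4 (-2.54) and Tph1 (-2.36). Those that turned from lower to higher included Cox7a1 (1.54), Rnd2 (1.20), Aldoc (1.13), Fut2 (0.96) and Oas1f (0.95). The list is not complete, as Chgb, Gcg and Cdx2, described above, also met these conditions. Scn3a encodes a sodium channel, Tph1 the serotonin-making enzyme of enterochromaffin cells, Cox7a1 a subunit of cytochrome c oxidase, Aldoc an aldolase, Fut2 a fucosyltransferase of mucosal glycans and Oas1f an antiviral oligoadenylate synthetase family member. A call on at least 1 of the days failed when 1 library was left out for Scn3a (day 1, 0.82, adjusted p = 0.12, without AA replicate 3), Adgrg4 (day 1, 0.45, 0.15, without vehicle replicate 2), Aldoc (day 1, -0.46, 0.071, without AA replicate 2), Cox7a1 (day 3, 0.54, 0.12, without AA replicate 3, and day 1, -0.66, 0.081, without AA replicate 3 of that day) and Fut2 (day 3, 0.24, 0.18, without AA replicate 2), each value being the one with the highest p on that day. The day 1 call of Cox7a1 also failed without vehicle replicate 1 of day 1 (-0.83, 0.051), so both of its calls rest on single libraries. The day 3 response of Oas1f did not pass without AA replicate 3 of day 3 (0.27, adjusted p = 0.16) or vehicle replicate 2 of day 3 (0.34, adjusted p = 0.072), and its day 1 response did not pass without vehicle replicate 3 of day 1 (-0.42, adjusted p = 0.050).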

How the results depend on the processing

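The count of 1983 differences between days ran from 1537 to 2103 when 1 library was left out, and was 1646 with DESeq2, 1961 with limma voom, 1979 with DESeq2 size factors, 1939 with total counts alone (829 more positive, 1110 more negative), 2047 with a stricter filter, 1977 without rRNA-like and mitochondrial genes, 2334 without a filter (1405 and 929) and 2668 with all 18 libraries. Genes called both ways had the same direction under each of these. At a threshold of 0.01 the counts were 988 differences, 3489 changes in vehicle, 344 late, 291 transient, 123 growing, 159 fading and 53 reversed responses, and 318 differences with vehicle only, 439 with AA only, 94 with opposite and 98 with same-direction changes, fewer by construction. Reversed responses numbered 98 with DESeq2 and 232 with all 18 libraries, and differences in which neither group changed numbered 91 without a filter and 23 to 78 with 1 library left out; the cause was not tested. Replicate numbers were used as a block in 1 alternative, which gave 2350 differences; of 18 same-numbered pairs 8 correlated above 0.1 and 7 of 12 libraries correlated best with their own number, so the numbers were not treated as pairs. Of the 166 named genes with a called difference, 140 passed under each of the 21 alternatives that tested them. The remaining 26 failed at least once, 25 of them when 1 library was left out, and 0 turned direction. A gene without a result under an alternative, as when a filter removed it, was not counted as failing there. Depth limits low genes: the standard error of the difference was 0.47 for Isx, with at most 1.33 CPM in 9 libraries, against a median of 0.13 over all genes.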

Other observations

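For 9 of 18 tight junction genes the response to AA was more negative at day 3, against 6.92% of all genes tested. Of the 18 tested claudin and tight junction genes, 9 rose and 2 fell with AA at day 1, 3 had a more positive response at day 3, and 7 of the 12 called changed in AA only. Cldn4, a claudin gene, stood at 102, 98.6 and 106 CPM in vehicle and 295, 308 and 310 CPM with AA at day 1, and at 147, 123 and 156 CPM and 142, 147 and 181 CPM at day 3, a difference of -1.43 ± 0.12 (adjusted p = 4.4e-07). It was higher with AA again at day 6 (1.15 ± 0.11, adjusted p = 1.9e-05). Cgn, the cingulin gene, faded by 0.52 and Tjp1, the ZO-1 gene, by 0.39, while Cldn15, a claudin gene of cation pores, had a more positive response at day 3 (difference 0.37). Nos2, the inducible nitric oxide synthase gene, had a response of 1.68 ± 0.11 at day 1, 0.21 ± 0.12 at day 3 and 2.64 ± 0.17 at day 6 (adjusted p = 1.8e-06). Without vehicle replicate 3 of day 3 the day 3 response of Nos2 passed the test (0.34, adjusted p = 0.040).

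Of 20 genes of stratified epithelium and the cornified envelope, which the simple intestinal epithelium does not normally build, 18 rose with AA at day 1 and 16 at day 3, and 13 rises persisted. With a stricter filter 11 and 10 rises were called, as fewer of the genes were tested. Tgm1, the transglutaminase gene of cornification, stood at 4.92 to 6.05 CPM in vehicle and 39.6 to 45.5 CPM with AA at day 1, then at 6.37 to 8.47 and 19.6 to 23.0 CPM at day 3 (difference -1.52 ± 0.17, adjusted p = 1.9e-06). Of 12 antigen presentation genes 3 were more positive and 1 more negative at day 3, and of 14 interferon response genes 1 each. Over all genes 6.83% were more positive and 6.92% more negative, and the interferon counts are near these shares. Lgr5, lower with AA on days 1 and 3, was higher with AA at day 6 (0.49 ± 0.10, adjusted p = 0.0026); its day 6 value was picked out after values were seen.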
